A study of Mus musculus with 6 samples.

Results

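Cells rich in Prg2 were examined in a mouse progenitor culture after the transcription factor HOXA9 was switched off. Prg2 encodes major basic protein, the main protein of the eosinophil granule core. A cell was taken as Prg2-rich when it held at least 20 unique molecular identifiers (UMIs, each marking 1 captured transcript) of Prg2, and it was set against cells of the same library with at most 2. The members were thus chosen by their measured Prg2 count. Of the kept cells, 257 of 1404 met the rule at 48 h and 58 of 1510 at 96 h, which is 315 of the 5872 kept cells of the series. The comparison cells numbered 836 at 48 h and 1401 at 96 h, and the 311 and 51 cells with 3 to 19 UMIs belong to neither group.

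The cells are HOXA9-immortalized granulocyte-macrophage progenitors (iGMPs), grown from bone marrow of mice with a Lysozyme-GFP reporter (Lys-GFP-ER-HoxA9, strain given as C57BI/6). They carry HOXA9 fused to the ligand-binding domain of an estrogen receptor, which keeps them in self-renewal while estradiol and stem cell factor are present. In the HOXA9 OFF samples, estradiol was withdrawn for 48 or 96 h from a clone with a control hairpin, while CAF-1 OFF samples kept estradiol and expressed a hairpin against Chaf1b. Live cells were sorted, each of the 6 libraries is 1 time point of 1 condition, and no library has a replicate, so that no test between groups was possible and cells of 1 library do not stand in for replicates. The labels name no cytokine in the medium other than stem cell factor.

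Eosinophils are granulocytes that arise from myeloid progenitors which express the transcription factors GATA1 and C/EBPε. Progenitors make the granule proteins, among them major basic protein, its homologue encoded by Prg3, eosinophil peroxidase (Epx) and the eosinophil-associated ribonucleases (Ear genes), before the cell matures and leaves the bone marrow. Interleukin-5, acting through Il5ra and the common beta chain Csf2rb, drives their growth, Ccr3 is their receptor for eotaxins, and Siglecf is their best known surface lectin in the mouse. Mast cells and basophils arise from neighbouring progenitors and share Gata1, Gata2 and Cpa3 with them in part.

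Prg2 and Prg3 lie side by side on chromosome 2. In the GRCm38.p6 assembly Prg2 spans chr2:84980461-84983632 and Prg3 chr2:84988196-84996559, with 4563 bases between them. Epx, at chr11:87863997-87875536, lies 59584 bases from its neutrophil relative Mpo, at chr11:87793784-87804412. Since Prg3 and Epx were the granule genes that stood out beside Prg2, a stretch of 230 bases just upstream of their transcript starts was read from RefSeq for each. Capitals mark TTATC, which is the GATA-factor motif GATAA on the opposite strand.
Prg3 (chr2:84987965-84988194, plus strand): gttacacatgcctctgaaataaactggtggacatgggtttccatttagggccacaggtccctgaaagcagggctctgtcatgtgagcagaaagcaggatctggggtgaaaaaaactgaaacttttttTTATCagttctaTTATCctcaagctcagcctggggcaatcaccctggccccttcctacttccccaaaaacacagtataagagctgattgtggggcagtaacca
Epx (chr11:87875557-87875786, minus strand): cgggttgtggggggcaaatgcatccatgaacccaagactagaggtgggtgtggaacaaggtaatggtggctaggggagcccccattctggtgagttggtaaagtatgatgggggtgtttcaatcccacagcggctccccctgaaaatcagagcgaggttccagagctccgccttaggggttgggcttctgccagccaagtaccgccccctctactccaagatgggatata
The Prg3 stretch held 2 matches to GATAA and 0 to the C/EBP motif TTGCNNAA, with both strands searched, and the Epx stretch held 0 of either. Of 32851 mouse promoter stretches of this length, 21.5% held GATAA, 3.90% held it at least 2 times, and 9.05% held TTGCNNAA.

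Prg2-rich cells made up 18.3% of the kept cells at 48 h (exact 95% binomial interval 16.3 to 20.4, for counting error only) and 3.84% at 96 h (2.93 to 4.94). In the uninduced HOXA9 OFF library, where the filter on cells removed 66.2% of barcodes, they were 10 of 473 cells (2.11%). In CAF-1 OFF they were 5 of 647 cells at 0 h, 11 of 927 at 48 h and 37 of 911 (4.06%) at 96 h. The share was thus highest in the HOXA9 OFF library at 48 h. Members at 48 h held between 20 and 1467 UMIs of Prg2, with a median of 248 and quartiles of 77 and 527. Prg2 took between 0.279% and 29.8% of a member's UMIs there, with a median of 8.24%. At 96 h members held between 20 and 1049 UMIs, with a median of 59.5, and the median share of UMIs was 2.11%. These cells carried 97.0% and 93.3% of all Prg2 UMIs of the kept cells of their libraries. Near the limit, 22 cells with 20 to 29 UMIs at 48 h were chosen and 53 with 10 to 19 were not. Prg3, which the rule did not use, was at 1912 CPM (UMIs of the gene per 1000000 UMIs of the group) in the former and 1922 CPM in the latter. At 96 h, 15 cells lay on either side of the limit in the same ranges, with Prg3 at 527 and 961 CPM.

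**Figure D1:**
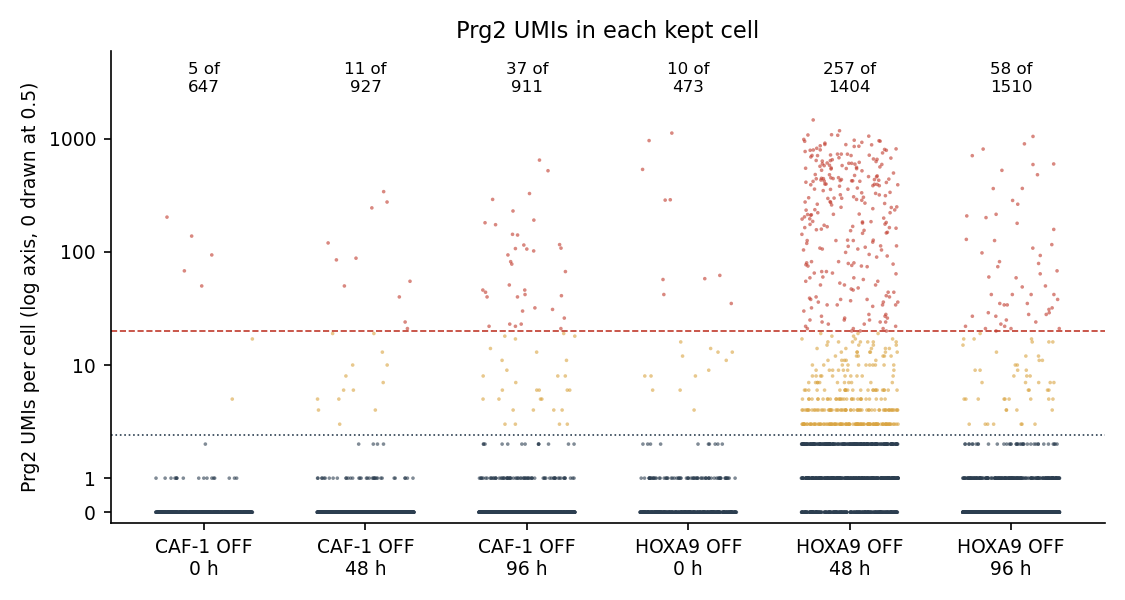
Number of Prg2 UMIs in each kept cell (log axis, with 0 drawn at 0.5) in the 6 libraries, with 1 point per cell. Lines mark the limits of 2 and 20 UMIs, and the HOXA9 OFF library at 48 h holds 257 cells at or above 20 UMIs against 58 at 96 h.

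Prg2-rich cells were deeper than Prg2-low cells, with median UMIs of 3754 against 3314.5 at 48 h and 3069.5 against 2010 at 96 h. The mitochondrial share was 4.59% against 4.80% at 48 h, and 3.61% against 1.82% at 96 h. Summed over cells, members held 976729 UMIs at 48 h and 189097 at 96 h, so that a count of 0 allows up to 3.07 and 15.9 CPM (3 counts of the total). Prg2-low cells held 2932366 and 3208305 UMIs, so UMI counts given below for both groups come from unlike totals. Of the barcodes of the members, 0 were shared between the times and 4 also occurred among kept cells of another library. The doublet caller marked 1 of the 257 members and 0 of the 58. Each difference between Prg2-rich and Prg2-low cells below is a description of cells that Prg2 chose.

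The eosinophil label was read against the other markers of the lineage. At 48 h the members held a high level of the granule gene Prg3. Epx was found in 71 of 257 members, with a median of 0 UMIs. Some Il5ra and Siglecf were also found in members, with almost no Ccr3. At 96 h the members held Alox15, Ccr3, Siglecf and Csf2rb with much less Prg3 and Epx. The 10 marker genes other than Prg2 summed to 11597 CPM in Prg2-rich and 584 CPM in Prg2-low cells at 48 h, a 19.9-fold difference (18.9 to 20.9). At 96 h the sums were 2729 and 132 CPM, a 20.7-fold difference (18.2 to 23.7). Both sums in members were mostly Prg3, the neighbour of Prg2. Prg3 gave 10998 and 440 CPM of the sums at 48 h, and 1988 and 18.7 CPM at 96 h. The fold of the sum is therefore largely that of Prg3 at 48 h. The median log2 ratio of the markers at or above the minimum level was 1.70 at 48 h and 2.95 at 96 h. Of the 6 markers that reached the minimum level of 20 CPM, averaged over the groups, 4 were at least 2-fold higher and 0 lower at 48 h, on the scale of log2 ratios after adding 10 CPM to both groups. At 96 h, 5 were higher and 1, Ear2, was lower. Of all 4286 genes at or above that minimum, 75 (1.75%) were at least 2-fold higher in Prg2-rich cells and 292 (6.81%) lower at 48 h. At 96 h 599 (14.0%) were higher and 395 (9.22%) lower. The median log2 ratio of the 4286 genes was −0.25 at 48 h and 0.17 at 96 h.

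The balance of higher and lower genes depended on the scaling. With the total UMI count as the base, 20.4% of the genes past 2-fold were higher at 48 h and 60.3% at 96 h. Scaling by trimmed mean of M values (TMM) gave 37.0% (125 higher, 213 lower) at 48 h and 36.0% (326 higher, 580 lower) at 96 h, and median-of-ratios scaling gave 36.4% and 36.0%. A total without Prg2 and the 20 most abundant genes gave 30.7% and 43.4%. TMM moved the median of all genes by 0.21 at 48 h and by −0.32 at 96 h, median-of-ratios by 0.21 and −0.32, and that smaller total by 0.14 and −0.22. Of the 75 genes higher at 48 h, 67 (89.3%) were also higher at 96 h, where they made up 11.2% of the higher genes. Of the 292 lower at 48 h, 176 (60.3%) were also lower at 96 h (44.6% of that list). None of the genes higher at 48 h was lower at 96 h, a count of 0, and 4 were lower at 48 h and higher at 96 h.

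Prg3 was the most abundant of the other eosinophil markers in members at both times. Prg2 itself stood at 87738 CPM in members at 48 h and 52539 CPM at 96 h, by choice of the cells. Prg3, whose protein resembles major basic protein, was at 10998 CPM in members (10791 to 11208, exact Poisson interval) and 440 CPM in Prg2-low cells at 48 h, a 25.0-fold difference (23.6 to 26.5). A member held between 0 and 244 UMIs of Prg3, with a median of 32, and 253 of 257 members held at least 1. With each cell thinned to 1300 UMIs, 95.5% of 244 members and 33.0% of 821 Prg2-low cells held a Prg3 UMI (98.4% and 55.9% without thinning). The level in Prg2-low cells was not even. It was 211 CPM in the 225 of them with at least 20 UMIs of S100a8, a neutrophil gene, beside 289 CPM of Prg2 in the same cells. At 96 h Prg3 was at 1988 CPM in members and 18.7 CPM in Prg2-low cells, 106-fold apart (80.8 to 142). The median fell to 2 UMIs a member there, with 1 cell holding 71 of the 376 UMIs.

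Epx, which makes the oxidant hypobromous acid, set the groups further apart than Prg3 did at 48 h. It had 231 UMIs in members (237 CPM, 207 to 269) and 6 in Prg2-low cells (2.05 CPM), a 116-fold difference (52.3 to 318). It was found in 71 of 257 members (27.6%) and 5 of 836 Prg2-low cells (0.598%), and the thinned shares were 15.2% and 0.122%. A single member held 23 of the 231 UMIs. At 96 h only 3 of 58 members held Epx, with 6 UMIs in all against 0 in Prg2-low cells, at least 33.9-fold higher. Among the ribonucleases at 48 h, Ear6 had 22 UMIs in members and 2 in Prg2-low cells, a ratio of 33.0 (8.12 to 290), and 0 in both at 96 h. Ear2, which is also made outside eosinophils, was at 96.2 and 78.4 CPM at 48 h and at 21.2 and 80.1 CPM at 96 h, 3.79-fold lower in members. Ear1 had at most 5 UMIs in any of the 4 groups. The Ear genes are a multigene family with similar sequences, so the split of counts among them is uncertain.

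**Figure D2:**
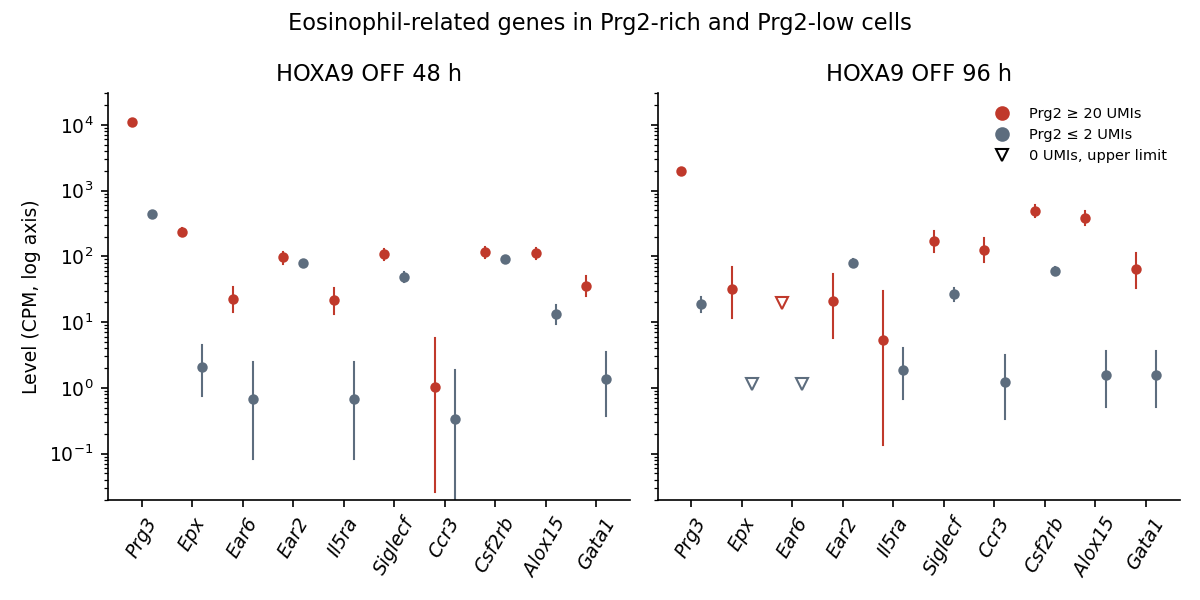
Levels of eosinophil genes in Prg2-rich and Prg2-low cells at 48 and 96 h, in CPM on a log axis, with exact 95% Poisson intervals of the summed counts and open triangles for the upper limit of a count of 0. Prg3 and Epx are highest in Prg2-rich cells at 48 h (10998 and 237 CPM), whereas Ccr3, Alox15 and Csf2rb are highest in Prg2-rich cells at 96 h (127, 386 and 497 CPM).

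Receptor genes differed more at 96 h than at 48 h. The 11 receptor genes summed to 374 CPM in members and 331 CPM in Prg2-low cells at 48 h, a ratio of 1.13 (0.999 to 1.28), and to 1417 and 275 CPM at 96 h, a ratio of 5.16 (4.48 to 5.92). Of the 6 at or above the minimum, 1 was at least 2-fold higher at 48 h and 5 at 96 h, and 0 were lower at either time. Il5ra had 21 UMIs in 21 members and 2 in Prg2-low cells at 48 h, a ratio of 31.5 (7.71 to 277). At 96 h it had 1 UMI in members and 6 in Prg2-low cells, and no difference was detectable at this depth. Ccr3 had 1 UMI in either group at 48 h. In members at 96 h it reached 127 CPM (81.3 to 189), with 1.25 CPM in Prg2-low cells, a ratio of 102 (35.0 to 404), and 13 of the 58 members held it. Siglecf was at 108 and 48.4 CPM at 48 h, 2.22-fold higher (1.71 to 2.88), and at 169 and 26.5 CPM at 96 h, 6.39-fold higher (4.11 to 9.70).

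Csf2rb, the chain that the receptors for interleukin-5, interleukin-3 and GM-CSF share, and its relative Csf2rb2 stood further apart between the groups at 96 h than at 48 h. Csf2rb was at 116 CPM in members and 89.7 CPM in Prg2-low cells at 48 h, a ratio of 1.29 that was 0.987 against cells with Prg2 at 0 UMIs, and at 497 and 59.8 CPM at 96 h, where it was 8.31-fold higher (6.42 to 10.7). A UMI of it was found in 39 of 58 members (67.2%) and 11.6% of Prg2-low cells at 96 h, and thinned shares were 57.1% and 8.04%. Csf2rb2, the chain used for interleukin-3 in the mouse, was at 31.7 and 24.2 CPM at 48 h and at 180 and 13.1 CPM at 96 h, 13.7-fold higher (8.47 to 22.1). Its sequence is close to that of Csf2rb, so how reads were assigned to either gene is uncertain. The GM-CSF receptor chain Csf2ra was at 84.0 and 151 CPM at 48 h and at 190 and 145 CPM at 96 h, both within 2-fold. C3ar1, the receptor for complement fragment C3a, had 1 UMI in members at 48 h and 39 at 96 h (206 CPM), 8.07-fold above Prg2-low cells (5.36 to 12.0). Ptgdr2 and Hrh4, the receptors for prostaglandin D2 and histamine, had 0 UMIs in all 4 groups.

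Alox15, a lipoxygenase that oxidizes arachidonic acid in eosinophils, was the lipid gene that set members apart. It was at 112 CPM in members (91.6 to 135) and 13.3 CPM in Prg2-low cells at 48 h, 8.39-fold higher (5.77 to 12.4). By 96 h the levels were 386 CPM (303 to 485) and 1.56 CPM, a ratio of 248 (101 to 786). It was found in 63 of 257 members at 48 h and in 36 of 58 at 96 h, and in 2.63% and 0.357% of Prg2-low cells. After thinning, 13.5% of members held it at 48 h and 32.1% at 96 h, against 1.71% and 0.156% of Prg2-low cells. The 225 S100a8-rich cells at 48 h held 0 UMIs of it. Of the other lipid mediator genes, Alox5ap, which presents arachidonic acid to 5-lipoxygenase, was at 1819 and 2209 CPM at 48 h and at 3691 and 2721 CPM at 96 h. The leukotriene B4 receptor Ltb4r1 was 2.33-fold lower in members at 96 h and Pla2g4a, a phospholipase that releases arachidonic acid, was 3.71-fold higher (1.92 to 6.69). Of 6 lipid genes at or above the minimum, 1 was higher at 48 h, and 2 were higher and 1 lower at 96 h. Their sum was 0.889 times that of Prg2-low cells at 48 h, which turned to 1.06 times with TMM scaling and 1.06 times with median-of-ratios scaling, and 1.36 times at 96 h.

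The GATA factors of the eosinophil and mast cell branch were higher in members at both times. Gata1 had 35 UMIs in members and 4 in Prg2-low cells at 48 h (35.8 and 1.36 CPM), a ratio of 26.3 (9.39 to 102). At 96 h it had 12 and 5 UMIs (63.5 and 1.56 CPM), a ratio of 40.7 (13.4 to 148). Gata2 was at 43.0 and 16.4 CPM at 48 h, 2.63-fold higher, and at 63.5 and 1.25 CPM at 96 h. Gfi1b, a repressor of the erythroid and megakaryocyte branch, had 18 and 4 UMIs at 48 h and 5 and 1 at 96 h. Cebpe, needed for late granulocyte maturation, was at 1034 and 578 CPM at 48 h, 1.79-fold higher (1.65 to 1.94), and at 1285 and 564 CPM at 96 h, 2.28-fold higher (1.99 to 2.61). Spi1, which encodes PU.1, was at 811 and 844 CPM and at 857 and 1065 CPM, within 2-fold at both times. The monocyte and dendritic factor Irf8 had 2 UMIs in members and 197 in Prg2-low cells at 48 h, a ratio of 0.0305 (0.00367 to 0.112), and 0 and 80 at 96 h. Myb, a progenitor factor, was at 146 and 74.7 CPM at 48 h and at 122 and 11.2 CPM at 96 h, 10.8-fold higher (6.13 to 18.8). Of 14 such factors at or above the minimum, 2 were higher and 3 lower at 48 h, and 6 were higher and 2 lower at 96 h.

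Genes shared with mast cells and basophils were high in members, but the defining proteases of mast cells were not. Cpa3, a mast cell carboxypeptidase, was at 1087 CPM in members (1023 to 1155) and 168 CPM in Prg2-low cells at 48 h, 6.48-fold higher (5.82 to 7.23), in 163 of 257 members. The mast cell chymase Cma1 had 0 UMIs in members and 132 in Prg2-low cells at 48 h, which puts members at least 14.7-fold lower. Mcpt8, a basophil protease, had 4 and 74 UMIs, and Ms4a2, the beta chain of the IgE receptor, 5 and 48. These counts are out of 976729 UMIs in members and 2932366 in Prg2-low cells. Prss34, a basophil protease, had 12 UMIs in members and 0 in Prg2-low cells, at least 12.0-fold higher. Hdc, which makes histamine, was at 163 and 34.4 CPM at 48 h (4.73-fold) and at 137 and 57.7 CPM at 96 h (2.38-fold). The proteases Tpsb2, Tpsab1, Mcpt4 and Gzmb had 0 UMIs in all 4 groups. Summed over the 14 genes of the list, members stood 4.04-fold higher at 48 h and 7.97-fold at 96 h. Of the 4 genes at or above the minimum, 3 and 4 were higher, and 0 lower. The sum at 48 h was mostly Cpa3 in members, which gave 1087 of 1376 CPM, against 168 of 340 CPM in Prg2-low cells. At 96 h Cpa3 gave 116 of 576 CPM in members and 4.05 of 72.3 CPM in Prg2-low cells.

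The Cpa3 signal came from cells of different kinds in the 2 groups at 48 h. There were 65 members and 22 Prg2-low cells with at least 5 UMIs of Cpa3, a limit chosen after values were seen. The 22 Prg2-low cells had Cpa3 at 6412 CPM with Cma1 at 1887, Mcpt8 at 914 and Ms4a2 at 472 CPM, and 0 UMIs of Epx. The 65 members had Cpa3 at 2743 CPM with Cma1 at 0 UMIs, Mcpt8 at 3.12 CPM, Ms4a2 at 15.6 CPM and Epx at 290 CPM. Eosinophil receptor genes summed to 374 CPM in all members and 1105 CPM in the 22 cells, a ratio of 0.338 (0.263 to 0.439). Of 14 lineage transcription factors, 2 were at least 2-fold higher in members than in the 22 cells and 6 lower. Eosinophil granule genes other than Prg2 were 15.4-fold higher in members (11.7 to 20.8). UMIs of both Epx and Cpa3 were found in 56 of 257 members and 0 of 836 Prg2-low cells, which allows a share of cells with both of up to 0.359% (3 counts of the total). At 96 h, 17 of the 22 Cpa3 UMIs of members lay in 1 cell, and the level was 27.0 CPM without it, against 4.05 CPM in Prg2-low cells. Il4, a cytokine that eosinophils, basophils and mast cells make, had 16 UMIs in members at 48 h and 21 at 96 h (111 CPM, in 19 cells), 39.6-fold above Prg2-low cells at 96 h (17.4 to 98.2). Cd200r3, a receptor of basophils and mast cells, was 1.82-fold higher in members at 48 h and 57.1-fold at 96 h (28.5 to 124).

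Neutrophil granule genes were lower in members, more so at 96 h. Secondary and tertiary granule genes summed to 2808 CPM in members and 20612 CPM in Prg2-low cells at 48 h, 7.34-fold lower, and to 7250 and 174321 CPM at 96 h, 24.0-fold lower. Of the 12 genes, 10 were at least 2-fold lower at 48 h and 12 at 96 h, and 0 were higher. S100a8, a calcium-binding protein that fills the neutrophil cytosol, was at 296 and 5902 CPM at 48 h, 19.9-fold lower, and at 2004 and 71307 CPM at 96 h, 35.6-fold lower. At least 20 UMIs of S100a8 were found in 3 of 257 and 0 of 58 members, and in 225 of 836 and 1298 of 1401 Prg2-low cells. Each 96 h member held between 1 and 15 S100a8 UMIs, with a median of 6. Its level in members was 5.01% of that in Prg2-low cells at 48 h and 2.81% at 96 h. Over the 8 genes with at least 100 CPM in Prg2-low cells at 48 h these percentages ran from 2.78% (S100a9) to 67.8% (Ngp), with a median of 7.19%. Over all 12, which passed that level at 96 h, they ran from 0% (Cd177) to 11.5% (Chil3), with a median of 3.87%. The part of free RNA in these levels was not tested.

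In 1 of the 58 members at 96 h secondary granule genes took 14.5% of the UMIs, against a median of 0.494% in members and 19.95% in Prg2-low cells. This cell had 208 UMIs of Prg2 and 2 of Prg3, and held 171 of the 228 UMIs of Ngp and 158 of the 199 of Chil3 found in members. Without the top cell, Ngp was at 307 CPM instead of 1206, and Chil3 at 221 CPM instead of 1052. The doublet caller did not mark it.

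Primary granule genes were lower in members than in Prg2-low cells at both times as a sum. Their sum was 1660 CPM in members and 5763 CPM in Prg2-low cells at 48 h, 3.47-fold lower, with all 6 genes at least 2-fold lower. Elane, neutrophil elastase, was at 70.6 and 551 CPM, 7.81-fold lower. Prtn3, proteinase 3, was at 513 and 2332 CPM, 4.55-fold lower. Mpo, myeloperoxidase, was at 384 and 810 CPM, 2.11-fold lower (ratio 0.474, 0.424 to 0.529), and at least 5 UMIs of it were found in 30 of 257 members and 153 of 836 Prg2-low cells. At 96 h the 6 genes held 4 UMIs in members (21.2 CPM) and 164 CPM in Prg2-low cells, 7.75-fold lower (3.01 to 28.6). With 10 CPM added to both groups, 2 of the 6 were at least 2-fold lower. Fcnb, 1 of the 2, was at 10.6 and 122 CPM. A gene at 0 UMIs in members has no interval. Mpo, Elane and Prtn3 had 0 UMIs in the 58 members, where the floor of 3 counts stands at 15.9 CPM, above the 3.74 and 1.87 CPM of Mpo and Elane in Prg2-low cells. The median log2 ratio of the list at 96 h was −0.35, and −0.04 with the zeros set at the floor.

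**Figure D3:**
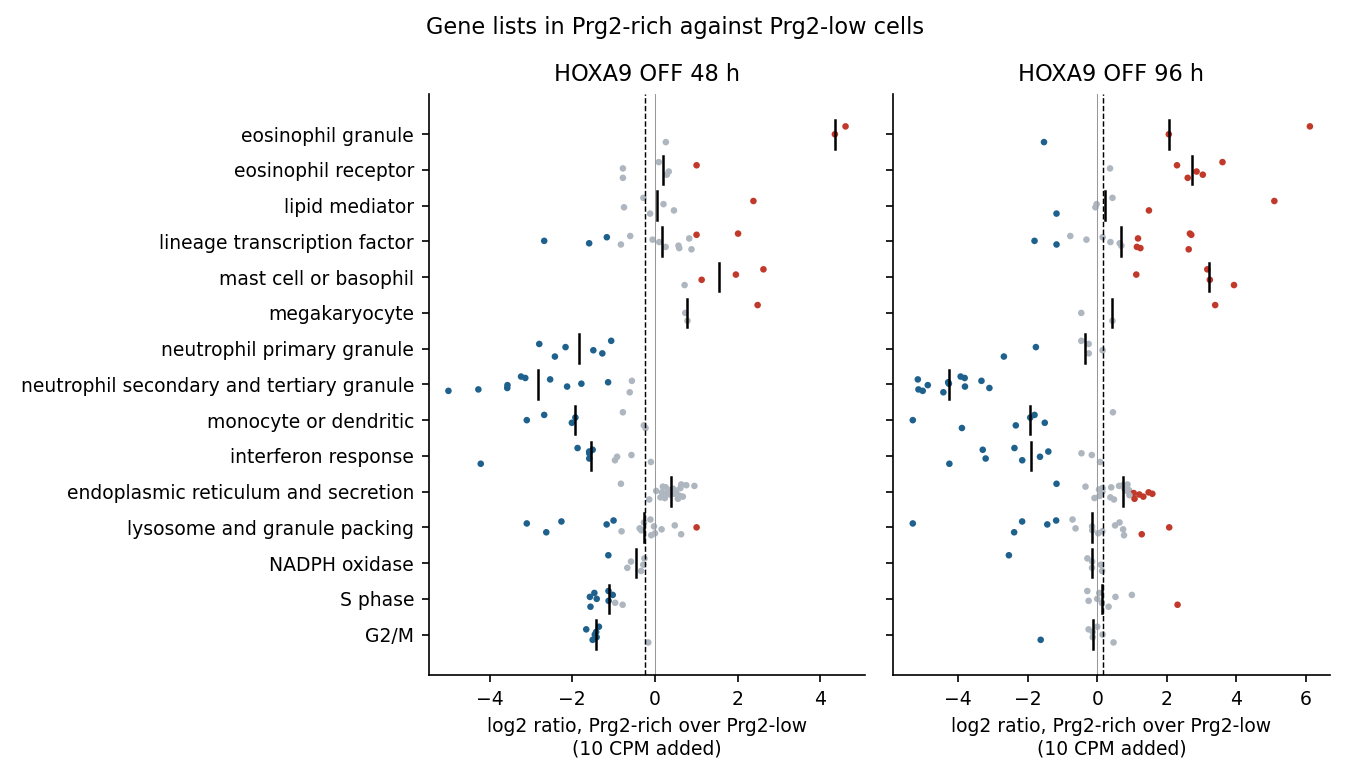
Log2 ratios of Prg2-rich to Prg2-low cells (10 CPM added) for the genes of each list at or above the minimum of 20 CPM, with 1 point per gene and the list's median as a bar, at 48 and 96 h. Red points are at least 2-fold higher and blue at least 2-fold lower, and the dashed line is the median of all 4286 genes. The secondary granule list lies at a median of −2.84 and −4.28, the interferon list at −1.55 and −1.90, and the receptor list at 0.19 and 2.73.

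Among other lineages, monocyte or dendritic genes were lower in members and the megakaryocyte sum was higher. Of 7 monocyte or dendritic genes at or above the minimum, 4 were at least 2-fold lower at 48 h and 6 at 96 h, and 0 were higher. Ctss, a lysosomal protease of antigen-presenting cells, had 1 UMI in members and 248 in Prg2-low cells at 48 h, and 1 and 1912 at 96 h (ratio 0.00887, 0.000225 to 0.0495). Cd74, the invariant chain, was not detected in members at 96 h against 445 UMIs in Prg2-low cells, at least 8.74-fold lower. Megakaryocyte genes summed to 302 CPM in members and 110 CPM in Prg2-low cells at 48 h, 2.75-fold higher (2.34 to 3.23). At 96 h the sums were 349 and 176 CPM, a ratio of 1.98 (1.51 to 2.56). Of 3 megakaryocyte genes, Itga2b, an integrin chain also found on early mast cells, was 10.2-fold higher at 48 h (101 and 9.89 CPM) and at least 102-fold at 96 h (18 and 0 UMIs), whereas the platelet factor Pf4 had 4 UMIs in members at 48 h and 0 at 96 h. No erythroid gene reached the minimum level (0 of 10), and 1 of 7 lymphoid genes did, within 2-fold at 48 h and with 0 UMIs in members at 96 h, where the bound does not set a direction. The erythroid sum was at a ratio of 1.36 (0.803 to 2.24) at 48 h. At 96 h it was at 26.4 and 4.99 CPM, a ratio of 5.30 (1.52 to 15.1), with 8 of the 10 genes at 0 UMIs in members. The 7 genes not expressed in blood had 0 UMIs. Of 3 progenitor genes, 0 were past 2-fold at 48 h and Myb was higher at 96 h. Hoxa9 was at 46.1 and 73.0 CPM at 48 h and at 47.6 and 53.3 CPM at 96 h. In RNA-seq of whole cell populations at 48 h, the paper reads its RNA as the HOXA9 fusion transgene, with the endogenous gene not expressed. Which of them gave the counts here was not tested. The summed progenitor list was at a ratio of 1.06 at 48 h, where its median log2 ratio was −0.57, and 2.29 at 96 h. Of 3 p53 target genes, 0 were past 2-fold at either time.

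Cell cycle genes were lower in members at 48 h. Of 9 S phase genes at or above the minimum, 7 were at least 2-fold lower and 0 higher, and the sum of the list was 2.82-fold lower (436 and 1230 CPM). Of 7 G2/M genes, 6 were lower and 0 higher, and the sum was 2.47-fold lower (1030 and 2539 CPM). At 96 h, when both groups were low, S phase genes summed to 412 and 200 CPM and G2/M genes to 465 and 847 CPM, with 1 S phase gene higher and 1 G2/M gene lower. The median of the G2/M list at 96 h was −0.13, and 1.12 with zeros at the floor, so that no direction is given.

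Genes of protein synthesis and export were examined because a granule-filled cell makes much secreted protein. At 48 h all 23 endoplasmic reticulum and secretion genes at or above the minimum were within 2-fold, and the list summed to 6970 CPM in members and 5027 CPM in Prg2-low cells, 1.39-fold higher (1.35 to 1.43). The chaperone Calr was at 930 and 475 CPM and Hspa5 at 301 and 190 CPM. At 96 h the sums were 3073 and 1961 CPM, a ratio of 1.57, with 6 genes higher and 1 lower. Xbp1, a factor that eosinophil progenitors need in the mouse, was at 57.3 and 109 CPM at 48 h, and at 21.2 and 60.2 CPM (4 UMIs in members) at 96 h, the gene that was lower. Ribosomal protein genes, a group chosen after values were seen, took 29.2% of the UMIs of members and 25.4% of those of Prg2-low cells at 48 h, and 21.1% and 7.18% at 96 h. Of the 79 genes, 0 were at least 2-fold higher at 48 h and 73 at 96 h, when Prg2-low cells had fewer genes per cell (775, against 1210 in members).

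Of 17 genes of lysosomes and granule packing, 1 was higher and 5 lower at 48 h, and 2 were higher and 5 lower at 96 h. Cd63, a tetraspanin of granule membranes, was at 3443 and 1707 CPM at 48 h, 2.02-fold higher, and at 2961 and 697 CPM at 96 h, 4.25-fold higher. Srgn, the core protein that holds granule proteins, was at 1570 and 1007 CPM and at 1380 and 562 CPM. Psap, which activates lysosomal lipid hydrolases, was 6.61-fold lower at 48 h and 5.46-fold lower at 96 h, and Ctsc, which activates neutrophil serine proteases, 5.70-fold and 5.02-fold lower. Among the 6 NADPH oxidase subunits, Cybb was 2.29-fold lower at 48 h (111 and 253 CPM) and 6.26-fold lower at 96 h (111 and 695 CPM), while the other 5 were within 2-fold. Glycolysis genes were within 2-fold at 48 h (10 of 10), and 4 of 10 were higher at 96 h, Ldha among them at 386 and 157 CPM. The direction of the glycolysis sum at 96 h depended on the scaling. Over all 4286 genes, 1.75% were higher and 6.81% lower at 48 h, and 14.0% higher and 9.22% lower at 96 h.

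Interferon response genes were low in members beside Prg2-low cells. Of 10 genes, 6 were at least 2-fold lower at 48 h and 7 at 96 h, and 0 were higher. The list summed to 94.2 and 905 CPM at 48 h and to 1359 and 8220 CPM at 96 h. Ifitm3, an antiviral membrane protein, was at 27.6 and 689 CPM at 48 h, 24.9-fold lower, and at 238 and 4728 CPM at 96 h, 19.9-fold lower. Irf7, a master regulator of interferon genes, had 1 and 68 UMIs at 48 h and was at 233 and 322 CPM at 96 h, within 2-fold. The list was also 14.4-fold higher (11.3 to 18.5) in members at 96 h than in members at 48 h, with all 10 genes at least 2-fold higher. Prg2-low cells differed between the times in the same direction.

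Outside the lists, the named-gene rule picked genes at least 2-fold higher or lower at both times. Slc18a2, which loads amines such as histamine into vesicles, was at 191 and 17.7 CPM at 48 h, 10.8-fold higher (7.90 to 15.0), and at 227 and 2.81 CPM at 96 h, 81.1-fold higher (39.0 to 189). Slc7a11, the cystine transporter, was at 372 and 52.2 CPM, 7.12-fold higher (5.88 to 8.66), and at 1539 and 370 CPM, 4.16-fold higher. Oaf was 14.7-fold higher at 48 h (100 and 6.82 CPM) and had 4 and 1 UMIs at 96 h. Cdh17, a cadherin, was 11.5-fold higher at 48 h (5.80 to 24.7) and had 19 UMIs in members and 2 in Prg2-low cells at 96 h, a ratio of 161 (38.9 to 1427). The sialyltransferase gene St6galnac3 was 10.4-fold higher at 48 h and had 11 and 3 UMIs at 96 h. Ikzf2, a zinc finger factor of the Ikaros family, was at 174 and 35.1 CPM and at 206 and 5.30 CPM, and the nucleotide sugar receptor P2ry14 at 137 and 25.2 CPM and at 217 and 12.8 CPM. Chpt1, which makes phosphatidylcholine, was 4.01-fold higher at 48 h and 29.3-fold at 96 h, and Herc1 6.60-fold and 4.16-fold.

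The genes with the lowest ratios outside the lists included several known from neutrophils and monocytes. Ly6c2, a surface antigen of monocytes, was 18.5-fold lower at 48 h (34.8 and 646 CPM) and 14.4-fold at 96 h. Ifitm6 was 23.0-fold and 80.2-fold lower, and Wfdc21 21.9-fold and 23.6-fold. Pld4, a nuclease of endolysosomes, had 0 UMIs in members and 398 in Prg2-low cells at 48 h, at least 44.2-fold lower, and 1 and 550 at 96 h. Ms4a6c had 8 and 532 UMIs at 48 h and 0 and 760 at 96 h, and Mcemp1 3 and 139 and then 0 and 1144. The stefin genes, inhibitors of cysteine proteases, were lower at both times. BC100530 was 5.80-fold lower at 48 h and 52.8-fold at 96 h, and Stfa3 had 1 and 258 UMIs at 48 h and was 49.1-fold lower at 96 h. Stefin copies are near-identical, so the values of BC100530, Stfa3 and 2010005H15Rik, which was 13.8-fold lower at 48 h and 68.3-fold at 96 h, are uncertain for the single gene.

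The genes most like Prg2 were sought across 1376 cells of the 48 h library thinned to 1300 UMIs. Of 3407 genes, Prg3 had the highest Spearman correlation with Prg2 (0.52), followed by Cpa3 (0.35), Cd63 (0.28), Rpl9 (0.28) and Slc7a11 (0.26). Rpl9, a ribosomal protein gene, was at 9119 and 6230 CPM at 48 h. These cells share a library, and the values describe it without a test.

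Members at 48 h were not alike. They were ordered by the share of Prg2 among their UMIs, and the 129 cells at or above the median were set against the 128 below it. Prg2 stood at 149810 and 28572 CPM by this choice. The cells with more Prg2 also held more Prg3 (16202 and 6037 CPM), 2.68-fold (2.57 to 2.80), more Epx (390 and 90.0 CPM), 4.34-fold (3.12 to 6.15), and more Siglecf (155 and 62.0 CPM), 2.50-fold (1.63 to 3.94). Il5ra was 4.46-fold higher (1.45 to 18.2, 21 UMIs in all). Cebpe was at 1106 and 966 CPM and Cpa3 at 1112 and 1064 CPM, ratios of 1.14 and 1.05. Primary granule genes went the other way. Elane was 15.5-fold lower in the cells with more Prg2 (8.39 and 130 CPM), Ms4a3, a cell cycle regulator of granulocyte progenitors, 15.0-fold (44.1 and 660 CPM), Prtn3 7.57-fold, Ctsg, cathepsin G, 7.05-fold and Mpo 4.01-fold. Of the later neutrophil genes, Ngp was 12.8-fold lower (220 and 2814 CPM) and S100a8 4.91-fold (98.6 and 484 CPM). These folds are of summed UMIs, which a part of the members held. Elane was found in 23 of 257 members, Mpo in 85, S100a8 in 84, Ngp in 93 and Epx in 71. The median member held 0 UMIs of Mpo, S100a8 and Epx, and the highest count of S100a8 in a member was 96. How far single cells made the folds was not tested.

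**Figure D4:**
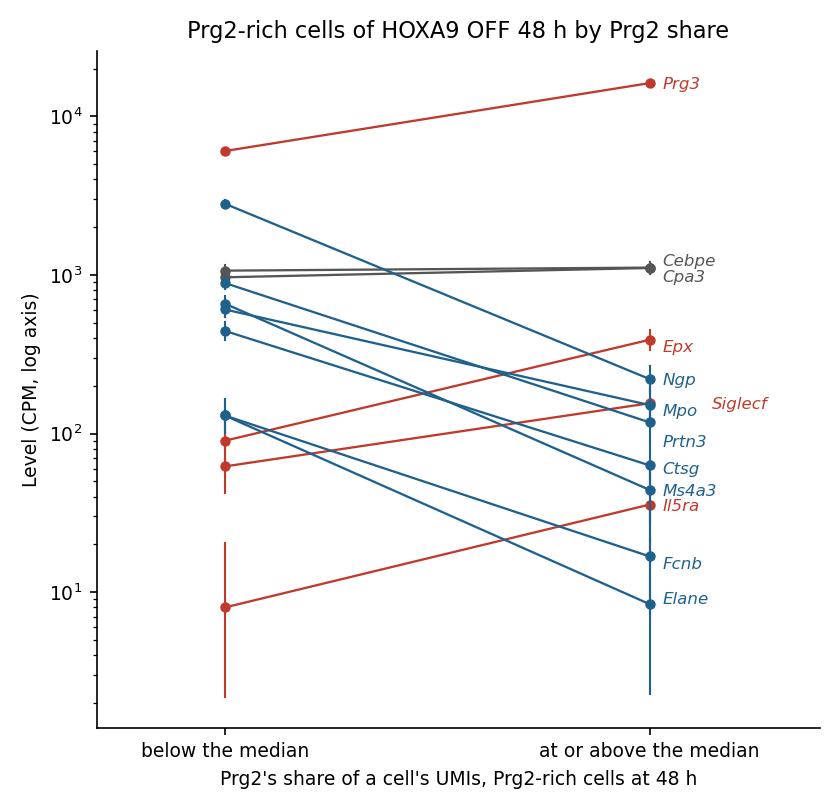
Levels of 13 genes in Prg2-rich cells of HOXA9 OFF at 48 h, in CPM on a log axis with exact 95% Poisson intervals, for the 128 cells below the median Prg2 share (left) and the 129 at or above it (right), with a line joining each gene. Prg3, Epx, Siglecf and Il5ra rise to the right, Cebpe and Cpa3 stay near 1000 CPM, and the neutrophil genes Elane, Ms4a3, Prtn3, Ctsg, Mpo, Fcnb and Ngp fall.

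A split of members by Cpa3 count also set neutrophil genes apart, although Cpa3 was alike on both sides of the split by Prg2 share. Members with Cpa3 above 0 but below 5 UMIs were in neither group. The 65 members with at least 5 UMIs of Cpa3 had Prg2 at 101150 CPM and Prg3 at 14766 CPM, and the 94 members with 0 UMIs of Cpa3 had them at 49637 and 5561 CPM. Epx was at 290 and 109 CPM in these groups. Ngp was at 203 CPM in the former and 4190 CPM in the latter, Elane at 9.35 and 198 CPM, Ms4a3 at 49.9 and 780 CPM, and S100a8 at 103 and 690 CPM. Median depth was 4664 and 3209 UMIs. As sums, the members with at least 5 UMIs of Cpa3 were thus lower in these neutrophil genes, with mast cell proteases at or near 0 as given above. Of all 257 members, 23 held Elane and 84 held S100a8, so a part of the cells carried these sums.

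At 96 h the eosinophil genes did not all go the same way along the Prg2 share. In the 29 members at or above the median Prg2 share, Prg3 was 6.65-fold higher than in the 29 below it, whereas Csf2rb was at a ratio of 0.294, Alox15 of 0.566 and Ccr3 of 0.515 (0.199 to 1.26). The 51 cells with 3 to 19 UMIs of Prg2, which the rule left out, had Ccr3 at 158 CPM, Csf2rb at 591 CPM and Alox15 at 268 CPM. They also had S100a8 at 6612 CPM and Prg3 at 694 CPM. UMIs of Ccr3 and of Alox15 were therefore not limited to the cells that the Prg2 rule chose at 96 h. Whether single cells among the 51 held both genes was not examined.

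Members at 96 h were also set against members at 48 h. Of the 4286 genes, 667 (15.6%) were at least 2-fold higher at 96 h and 312 (7.28%) lower, with a median log2 ratio of 0.20. Prg3 was 5.53-fold lower and Epx 7.45-fold lower at 96 h, Cpa3 9.35-fold lower, and Siglecf 1.57-fold higher. Ccr3 had 1 and 24 UMIs, a ratio of 124, and Csf2rb was 4.30-fold and Csf2rb2 5.67-fold higher. Serpinb2, an intracellular inhibitor of plasminogen activators, had 2 UMIs at 48 h and 71 at 96 h (375 CPM), with 20 in 1 cell. Arl4c, a small GTPase, went from 6.14 to 354 CPM, 57.7-fold higher (25.2 to 163). The proteases Mpo and Prtn3 went to 0 UMIs, at least 24.2-fold and 32.3-fold lower, and Mzb1, an endoplasmic reticulum chaperone partner, from 111 CPM to 0 UMIs, at least 6.97-fold lower. Of 23 endoplasmic reticulum and secretion genes, 10 were lower and 0 higher, and their sum was 0.441 times that at 48 h. The interferon-induced genes named above, and Retnlg, a neutrophil gene that went from 1 UMI to 349 CPM, also differed between the Prg2-low cells of the 2 times.

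**Figure D5:**
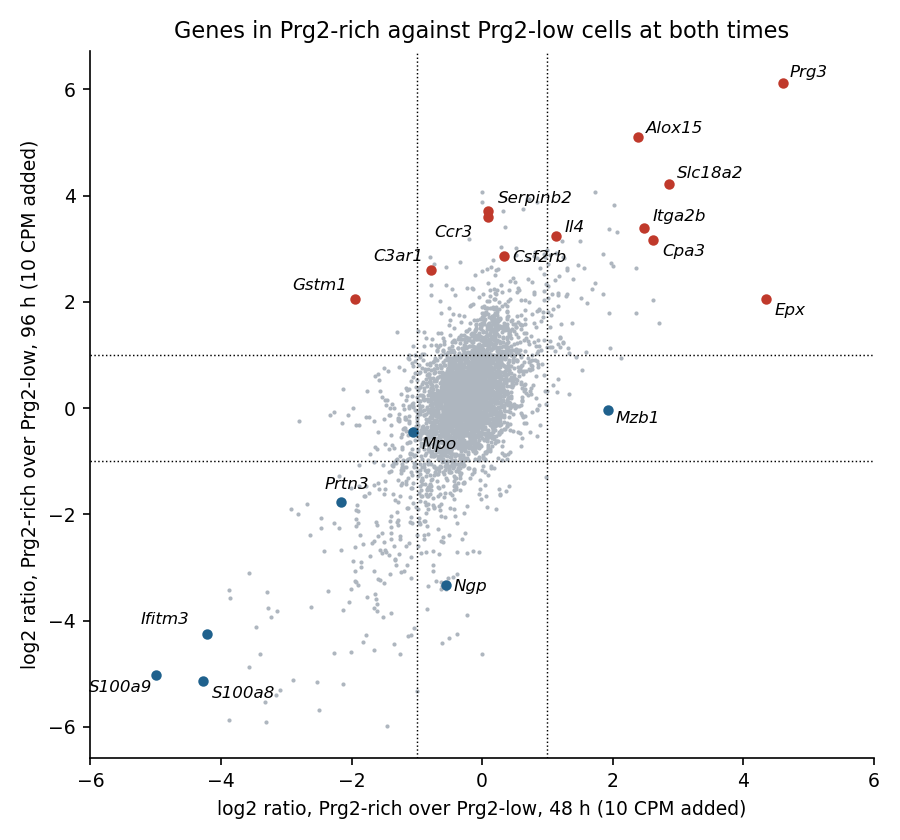
Log2 ratio of Prg2-rich to Prg2-low cells (10 CPM added) at 48 h (horizontal) and 96 h (vertical) for the 4286 genes at or above 20 CPM, with 1 point per gene, some genes labelled, and dotted lines at 2-fold. The lower left corner holds neutrophil genes such as S100a8 and S100a9, and the upper right Prg3, Alox15 and Slc18a2, which are higher in Prg2-rich cells at both times.

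Some genes had a larger ratio at 1 time by the naming rule. Adamdec1, a metalloprotease, had 0 UMIs in both groups at 48 h and 31 and 6 at 96 h, a ratio of 87.7 (36.0 to 257). Tagln2, an actin-binding protein, was at 260 and 460 CPM at 48 h and at 428 and 51.4 CPM at 96 h, 8.33-fold higher (6.30 to 10.9). Glrx, a glutaredoxin, was 2.13-fold lower at 48 h and 21.5-fold lower at 96 h. The 31 Hbb-y UMIs of members at 96 h all lay in 1 cell.

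The few Prg2-rich cells of the other libraries also held Prg3 and Cpa3, with 0 to 2 UMIs of Epx in each library. In the 10 of the uninduced HOXA9 OFF library, Prg2 was at 38819, Prg3 at 9792 and Cpa3 at 1349 CPM, with 0 UMIs of Epx, 0 of Siglecf and 23 of Ms4a2 (259 CPM). In the 37 of CAF-1 OFF at 96 h, Prg2 was at 22456, Prg3 at 4885 and Cpa3 at 3936 CPM, with 0 UMIs of Epx. The 5 cells of CAF-1 OFF at 0 h held 7728 CPM of Prg3 and 2271 CPM of Cpa3, with 2 UMIs of Epx, and the 11 at 48 h held 6217 and 2735 CPM, with 1 UMI of Epx. The 37 cells of CAF-1 OFF at 96 h held Elane at 1428, Ctsg at 6195 and Mcpt8 at 739 CPM. Members at 48 h of HOXA9 OFF held 70.6, 258 and 4.10 CPM of these genes. The conditions differ in clone as well as in treatment, which cannot be told apart, and these differences were not tested.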

How the data were processed

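Libraries were prepared with the 10x Chromium 3′ kit, version 2. The authors aligned reads to GRCm38 (mm10) with Cell Ranger (3.0.1 in the submitters' processing notes, which also name Seurat 3.0.1 and Scanpy 1.4.6) and deposited raw UMI counts per gene and barcode, with no normalization. From these counts, cells with 200 to 6000 genes and at most 10% mitochondrial UMIs were kept. This removed 12.1% of barcodes at 48 h and 0.198% at 96 h. Groups came from the submitters' sample labels.

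UMIs were summed per group of cells and divided by the group's total (CPM). Intervals are exact 95% Poisson (levels) and binomial (ratios, shares) and cover counting error only. A group at 0 was set to a floor of 3 counts over the group. Counting of ratios added 10 CPM and required a mean of 20 CPM over the 4 groups. The calculation was tested on simulated data. Doublets were called with Scrublet (Scanpy 1.11.5) but kept; it marked 125 of 5872 cells (2.13%), and under 0.5% of members and Prg2-low cells, so it cannot be relied on in these libraries. Python 3.11.15, SciPy 1.17.1 and Matplotlib 3.10.9 were used.

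The members, gene lists and comparisons were chosen with earlier results of these data known. Besides list genes, the rule for named genes took, at each time, up to 10 genes with the largest and 10 with the smallest ratio (at least 50 CPM in a group and 2-fold at both times), up to 5 in each direction by difference between times and by level at 96 h against 48 h (at least 100 CPM), and the 5 most correlated with Prg2. Alternatives changed the limits on Prg2, cells and genes, the total, the scaling, the added CPM and the size.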

Additional observations from a re-analysis of the deposited data

Results flagged for a closer look

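Gstm1, a glutathione transferase, moved in opposite directions at the 2 times, which is why it is given here. Its log2 ratio of Prg2-rich to Prg2-low cells was −1.95 at 48 h (86.0 and 360 CPM) and 2.06 at 96 h (317 and 68.6 CPM). The difference between the times was not tested, since each time is 1 library. The other 3 genes that were at least 2-fold lower at 48 h and higher at 96 h were named after their values were seen. Lgals3, which encodes galectin-3, had log2 ratios of −1.12 and 1.00, Cenpw, a centromere protein, −1.30 and 1.44 with 5 UMIs in members at 96 h, and Itgb3bp −1.06 and 1.16 with 3 UMIs.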

How the results depend on the processing

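No paired analysis was possible because each group is 1 library and replicate numbers only name it. For the same reason no library could be left out. Of 2571 ratios of genes and lists under the alternative settings, 511 moved past their counting interval, and of 404 ratios of members at 96 h to 48 h, 10 moved. In the first set 34 fell on the other side of 1. Of these, 0 had been at least 2-fold with an interval that excluded 1, and 9 had been smaller with such an interval. The 9 were the lipid mediator sum at 48 h (0.889, 1.06 with TMM and 1.06 with median of ratios), the lysosome sum at 48 h (1.08, 0.997 against cells with Prg2 at 0 UMIs) and at 96 h (1.25, 0.958 with TMM and 0.958 with median of ratios), the glycolysis sum at 96 h (1.16, 0.973 without Prg2 and 20 genes in the total, 0.885 with TMM and 0.885 with median of ratios) and Csf2rb at 48 h (1.29, 0.987 against cells with Prg2 at 0 UMIs). Shares of cells with a UMI moved with the thinning depth in 77 of 136.

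The 75 genes higher at 48 h became 130 with a total without Prg2 and 20 genes, 125 with TMM, 123 with median of ratios, 25 with 50 CPM added, 196 at 1.5-fold and 15 at 4-fold. The 292 lower became 498 with 1 CPM added, 81 with 50 CPM, 872 at 1.5-fold and 48 at 4-fold. At 96 h the 599 higher became 326 with TMM, 326 with median of ratios, 279 with 50 CPM, 1196 at 1.5-fold and 122 at 4-fold. The 395 lower became 697 with the total without Prg2 and 20 genes, 209 with 50 CPM, 707 with no minimum level, 703 at 1.5-fold and 159 at 4-fold. The pseudocount and size set these by construction, and the cause of the other moves was not tested.

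At 48 h the share of members was 22.1% at 10 or more Prg2 UMIs, 15.1% at 50 or more, and 15.9% by share of UMIs. With a mitochondrial limit of 5% the members numbered 167. At 96 h, 31 members (2.05%) remained at 50 or more UMIs. The sums of eosinophil genes that follow were mostly Prg3 in members. The summed eosinophil genes, 19.9-fold higher at 48 h, were 16.7-fold at 10 or more UMIs, 23.3-fold at 50 or more, 22.6-fold against cells with 0 UMIs, 21.4-fold by share, 21.8-fold without Prg2 in the total, 22.2-fold without 20 more genes, 23.7-fold with TMM, 23.6-fold with median of ratios and 24.5-fold at the 5% limit. At 96 h the 20.7-fold became 27.7-fold at 50 or more UMIs, 17.5-fold without Prg2 and 20 genes, 15.9-fold with TMM, 15.9-fold with median of ratios and 17.2-fold at the 5% limit. The 58 members at 96 h hold 189097 UMIs, so genes under about 15.9 CPM there could not be told from 0.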
